A study of Mus musculus with 6 samples.

Results

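Transcripts of 10 genes that hold back NF-kB signalling were followed in regulatory T (Treg) cells of a mouse tumour. Their levels were compared between total RNA and RNA precipitated with an antibody to YTHDF2. The genes were chosen by name and identifier for their role, and all 10 were found among the 54446 gene identifiers of each count file. Treg cells, gated as live CD45+ CD4+ Foxp3-GFP+ cells, were sorted from B16F10 tumours, a melanoma line implanted under the skin of wild-type (WT) mice. The cells were lysed and split into 2 groups of libraries: 3 from RNA precipitated with an antibody to YTHDF2 for 4 hours and washed 6 times (IP), and 3 from the 10% of lysate kept without antibody (Input). Both groups share the genotype, the tumour and the reporter. Neither the age of the mice nor whether a library came from 1 animal or a pool is given in the sources used here, so the spread behind each p-value may be technical. A precipitation with a control antibody, or from cells without YTHDF2, was not analysed here, so a difference between IP and Input is not by itself binding to YTHDF2. Whether the sorted cells carried Treg markers was not checked, because the files pair no identifier with a gene name beyond the 10 genes followed here.

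NF-kB transcription factors wait in the cytoplasm until signals from antigen and TNF-family receptors build ubiquitin chains on adaptor proteins, which recruit the kinases that free them. The brakes described here cut, edit, cover or redirect these chains, or remove the transcripts that NF-kB makes, and several are themselves NF-kB target genes, which closes a feedback loop. Treg cells depend on NF-kB for their development and for their effector state in tissues. YTHDF2 is a cytoplasmic reader of N6-methyladenosine in mRNA that promotes decay of the transcripts it binds.

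The promoters of 2 of these genes are shown because the feedback loop runs through such sites; the libraries measured RNA and hold no readout of promoter activity. The sequences are from RefSeq, build GRCm38.p6, and promoters were listed for 8 of the 10 genes, with Itch and Otud7b not in the table. The NF-kB consensus motif was searched on both strands in the 250 bases before each transcript start. A match was found for 5 of the 8 genes, Tnfaip3, Tnip1, Traf3, Cyld and Tank, against 4.46% of the 27025 genes in the table. Some genes, Tank among them, have several promoters listed, and a match is a description of letters, not a bound site. The capitals mark the matching bases, and the 3 overlapping matches of Tnip1 are joined into 1 run.
Tnfaip3, chr10:19015501-19015560, minus strand: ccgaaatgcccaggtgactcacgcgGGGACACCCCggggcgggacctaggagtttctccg
Tnfaip3, chr10:19015411-19015447, minus strand: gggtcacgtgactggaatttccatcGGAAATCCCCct
Tnip1, chr11:54962962-54963023, minus strand: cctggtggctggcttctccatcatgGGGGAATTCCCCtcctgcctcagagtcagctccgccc
The second Tnfaip3 match began 12 bases before the transcript start and the Tnip1 run 58 bases before it. In Traf3 the match was GGGGATTTCC, which began 10 bases before the transcript start listed with its promoter. This match lies inside the RefSeq span of the gene, which starts at chr12:111166321, and not upstream of it.

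Reads assigned to genes numbered 6847731 to 8465453 per IP library and 10029733 to 14704617 per Input library. IP replicate 3 had reads for the fewest gene identifiers, 14200, against 18501 and 19991 in the other IP libraries and 26250 to 33344 in the Input. Every one of the 10 genes had at least 630 reads in each library, where counting error alone is 3.98%, and all 10 passed the filter on low counts. Levels below are CPM, a gene's reads scaled to a common library size with edgeR's TMM factors, and fold changes are IP over Input. A transcript's CPM also rises with its length, for which no value was at hand, so levels are compared between groups and not between genes. As these are bulk libraries, a level does not tell how many cells held a transcript from how much of it each cell held.

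Of the 10 transcripts, 2 were enriched in the IP and none was depleted at an adjusted p under 0.05 in edgeR's quasi-likelihood test. The enriched ones were Nlrc3 and Traf3, at 1.82-fold and 1.57-fold. At an unadjusted p under 0.05 in the same test, 3 of the 10 were higher in the IP and 0 lower, where 10.0% of all tested genes were higher and 13.9% lower; among tested genes in the top quartile of mean level these shares were 27.7% and 24.6%, so 3 of 10 is near that background. DESeq2 also called Nlrc3 and Traf3 enriched and 0 of the 10 depleted, where it called 6.63% of its 20847 tested genes enriched and 10.0% depleted. Over all 15615 tested genes 4.33% were enriched and 6.11% depleted. All 10 genes lie in the top quartile of mean level, where 14.7% were enriched and 16.9% depleted, so 2 of 10 is close to what abundant genes gave as a whole. The log2 fold change was positive for 9 of the 10, with a median of 0.36 (quartiles 0.10 and 0.57), against a median of 0.10 (quartiles -0.62 and 0.59) for the tested genes of the top quartile and -0.12 for all tested genes. The median of the 10 was 0.14 without IP replicate 2, 0.24 without Input replicate 1 and 0.22 without Input replicate 3. With library sizes from all reads the median of the 10 turned negative, at -0.16, while that of all tested genes was -0.65.

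**Figure D1:**
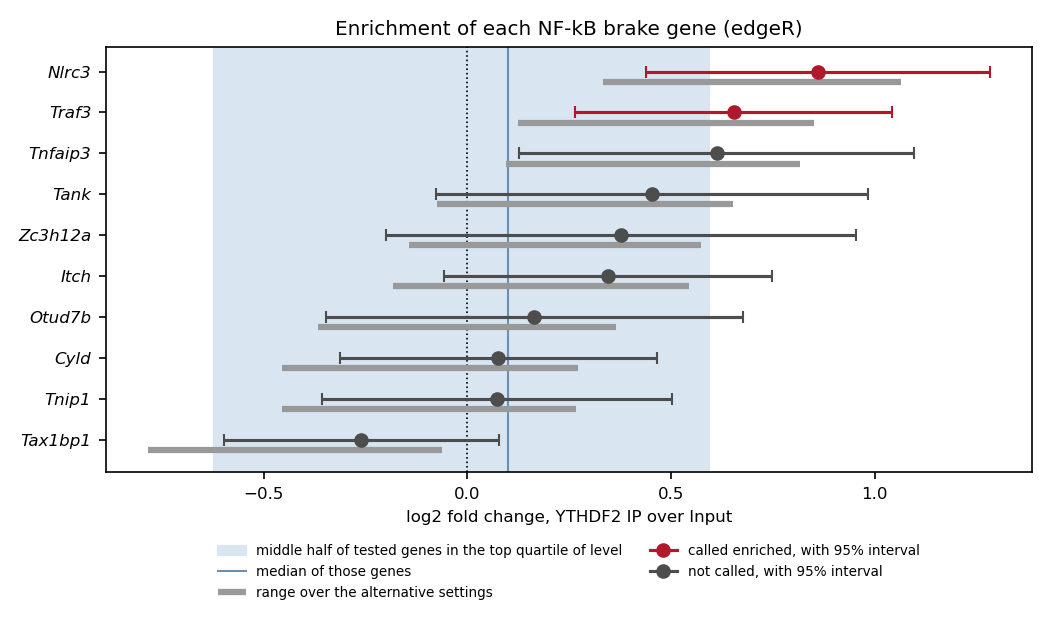
Log2 fold change of IP over Input for each gene, with its unadjusted 95% interval (points and bars), the range over 16 alternative settings (grey bars) and the interquartile range and median of tested genes in the top quartile of level (blue band and line). Nlrc3 and Traf3, in red, were called enriched, and Tax1bp1 is the only gene with a negative value.

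Among the enzymes and adaptors that edit ubiquitin chains, Tnfaip3 carried by far the most reads. Tnfaip3 (ENSMUSG00000019850.11), also named A20, joins a deubiquitinase and a ubiquitin ligase activity in 1 protein and shuts down NF-kB signalling after TNF and antigen receptor stimulation; its gene lies at chr10:19000910-19015410. It had 1602, 2313 and 2806 CPM in the IP libraries, against 1133, 1659.6 and 1604 CPM in the Input libraries. The lowest IP library fell inside the Input range and the other 2 lay above it, the highest being IP replicate 3. IP libraries averaged 2240.3 ± 605 CPM and Input libraries 1466 ± 289 CPM (SD, n = 3 each). edgeR's test put it 0.61 ± 0.22 (SE) higher in the IP on the log2 scale, at an unadjusted p of 0.0186 and an adjusted p of 0.107, so Tnfaip3 was not called. The value was 0.38 both without IP replicate 3 (adjusted p = 0.224) and without Input replicate 1 (adjusted p = 0.416). It was called enriched in 4 of 16 alternative settings: upper quartile factors (adjusted p = 0.0470), no filter on low counts (0.000514), limma voom (0.0436) and a replicate block (0.00120). Over all tested genes 6.92%, 1.82%, 5.62% and 5.33% were enriched in these settings, in that order, against 4.33% in the reported fit.

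Tnfaip3 set the weight of the whole list. It took 42.9%, 47.7% and 58.2% of the reads of the 10 genes in the IP libraries, against 37.6%, 46.3% and 47.1% in the Input libraries. The 10 genes together took 0.462% ± 0.0765 of gene-assigned reads in the IP and 0.316% ± 0.0282 in the Input (SD, n = 3 each). Without Tnfaip3 the other 9 took 0.229% ± 0.0222 in the IP and 0.177% ± 0.00446 in the Input. These sums describe a list of chosen genes and carry no test.

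Cyld and Otud7b, both deubiquitinases, were not called, and their IP and Input libraries overlapped. Cyld (ENSMUSG00000036712.15), the tumour suppressor that trims ubiquitin chains from NF-kB adaptors, had 369, 388 and 278 CPM in the IP libraries, against 305, 313 and 364 CPM in the Input libraries. IP replicate 3 lay below all Input libraries and the other IP libraries above them. Fitted by edgeR, the log2 change was 0.08 ± 0.17 (SE; adjusted p = 0.869). With TMM scaling the 95% interval of the fold, 0.805 to 1.38, leaves out a change of 1.5-fold in either direction. This depends on the scaling, as the log2 change was -0.45 with library sizes from all reads and 0.27 with upper quartile factors. Otud7b (ENSMUSG00000038495.14), also named Cezanne, removes ubiquitin from Traf3 and so restrains the non-canonical NF-kB route. It had 86.4, 93.5 and 77.8 CPM in the IP libraries, against 80.2, 66.5 and 83.3 CPM in the Input libraries. The differences among libraries of a group were as large as that between groups, with an edgeR log2 fold change of 0.16 ± 0.23 (SE; adjusted p = 0.767).

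Itch (ENSMUSG00000027598.16) is a ubiquitin ligase that works with Tnfaip3, and loss of Itch in mice leads to T cell driven autoimmunity. It had 146, 159 and 143 CPM in the IP libraries, against 121, 117 and 115 CPM in the Input libraries. All IP libraries lay above all Input libraries, as they did for 28.5% of tested genes in the top quartile of level. Within each group the Itch libraries were close together, with a coefficient of variation of 5.71% in the IP and 2.50% in the Input; the medians over the top quartile were 24.2% and 11.6%. This 1.27-fold difference, 0.35 ± 0.18 (SE) on the log2 scale, did not pass edgeR's test (adjusted p = 0.293).

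Traf3 (ENSMUSG00000021277.16) was 1 of the 2 transcripts called enriched. The protein is a receptor adaptor that keeps the kinase NIK at a low level and so holds back non-canonical NF-kB signalling; its gene lies at chr12:111166321-111267155. Traf3 had 315, 407 and 288 CPM in the IP libraries, against 220.2, 209 and 212 CPM in the Input libraries. The lowest IP library was above every Input library, and the Input libraries were nearly equal. Mean levels were 337 ± 62.7 CPM for the IP and 214 ± 5.67 CPM for the Input (SD, n = 3 each). On the log2 scale the enrichment was 0.65 ± 0.17 (SE; edgeR adjusted p = 0.0428), and the 95% interval of the fold was 1.20 to 2.06. This call was close to the threshold: with 1 library left out it held only without IP replicate 3 (adjusted p = 0.0171) and was lost in the other 5 fits, with adjusted p-values of 0.0992 to 0.236. A long noncoding gene, 4930595D18Rik, overlaps the Traf3 locus in RefSeq, and pseudogenes overlap the loci of Cyld, Itch and Tnip1. The strand setting of the counts is not given in the sources used here.

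**Figure D2:**
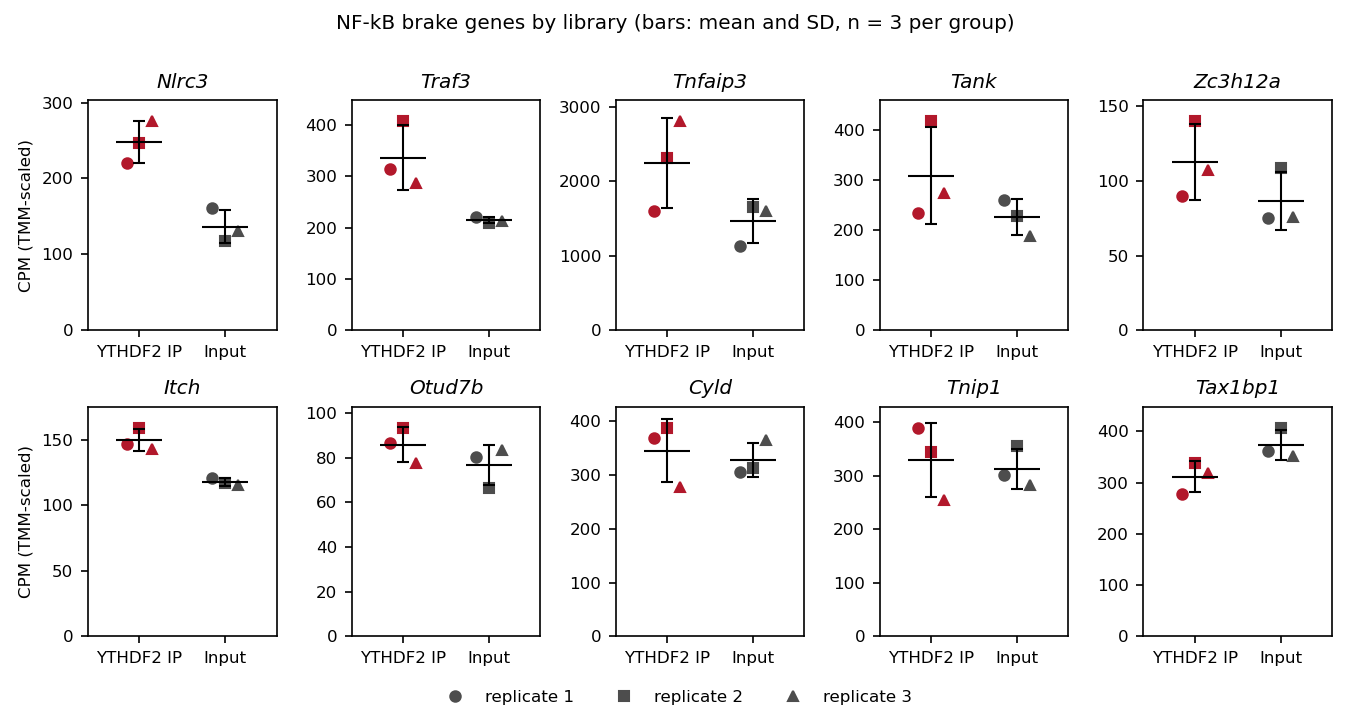
CPM of each gene in the 3 IP libraries (red, left) and the 3 Input libraries (grey, right), with the replicate number as the symbol and bars for the mean and SD; each panel has its own linear axis from 0. Nlrc3, Traf3 and Itch lie above the Input in every IP library, and Tax1bp1 lies below it.

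The adaptors that bring ubiquitin-editing enzymes to their targets gave no call. Tnip1 (ENSMUSG00000020400.17), also named ABIN, binds both Tnfaip3 and ubiquitin chains; it had 389.7, 344 and 254 CPM in the IP libraries, against 301, 355 and 283 CPM in the Input libraries. The IP libraries lay on both sides of the Input range, with an edgeR log2 fold change of 0.07 ± 0.19 (SE; adjusted p = 0.889). Tank (ENSMUSG00000064289.15), which binds TRAF proteins and dampens their signalling, had 233, 418 and 275 CPM in the IP libraries, against 260.4, 227 and 189 CPM in the Input libraries. IP replicate 2 stood above the rest, and the coefficient of variation in the IP, 31.3%, was the highest of the 10 genes. In edgeR's test Tank differed by 0.45 ± 0.24 (SE) on the log2 scale (adjusted p = 0.294), by 0.13 without IP replicate 2 and by 0.25 without Input replicate 3.

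Tax1bp1 (ENSMUSG00000004535.12), an autophagy receptor and a partner of Tnfaip3, was the 1 gene of the 10 with a lower mean in the IP. It had 279, 338 and 318 CPM in the IP libraries, against 361, 407 and 351 CPM in the Input libraries. All IP libraries were below all Input libraries, as for 27.9% of tested genes in the top quartile of level. The IP level was 0.835-fold that of the Input, a log2 fold change of -0.26 ± 0.15 (SE; edgeR adjusted p = 0.355), and the value stayed negative in all 16 alternative settings. It was called depleted in 1 of them, with library sizes from all reads, where its log2 fold change was -0.78 and its adjusted p 0.00744 and where 12.5% of all tested genes were depleted and 1.02% enriched.

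Nlrc3 (ENSMUSG00000049871.14) was the most enriched transcript of the 10. It encodes a cytoplasmic NOD-like receptor that, in mice, restrains NF-kB activation and T cell responses; its gene lies at chr16:3943807-3979017, and no other RefSeq gene overlaps it. Nlrc3 had 1883, 1704 and 2319 reads in the IP libraries, against 2229, 1113 and 1513 reads in the larger Input libraries. Scaled, these were 220.5, 247 and 275 CPM in the IP libraries, against 161, 117 and 131 CPM in the Input libraries. The groups were apart, with the lowest IP library well above the highest Input library. IP libraries averaged 248 ± 27.5 CPM and Input libraries 136 ± 22.1 CPM (SD, n = 3 each). Nlrc3 was thus higher by 0.86 ± 0.19 (SE) on the log2 scale (edgeR adjusted p = 0.0185), with a 95% interval of the fold of 1.36 to 2.43. Among tested genes in the top quartile of level, 86.6% had a lower log2 fold change. The call was lost without IP replicate 2 (adjusted p = 0.0663), Input replicate 2 (0.167) or Input replicate 3 (0.152), and with library sizes from all reads (0.353).

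Zc3h12a (ENSMUSG00000042677.7), also named Regnase-1, is an RNase that degrades inflammatory mRNAs and restrains T cell activation, and it had the fewest reads after Otud7b. It had 89.8, 139.95 and 108 CPM in the IP libraries, against 75.3, 109 and 75.6 CPM in the Input libraries. Replicate 2 was the highest library of both groups, and the groups overlapped. edgeR gave 0.38 ± 0.26 (SE) on the log2 scale (adjusted p = 0.455), and the 95% interval of the fold, 0.870 to 1.94, holds both no change and a change of 1.5-fold. The log2 value was 0.15 without IP replicate 2 and 0.20 without Input replicate 1 or Input replicate 3.

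With TMM scaling, the 95% interval of the log2 fold change ended below 1 for 7 of the 8 transcripts that were not called. That is below a doubling in the IP. The exception was Tnfaip3, whose interval reached 2.14-fold. Missing the threshold therefore does not show that IP and Input were equal for Tank, Zc3h12a or Itch, whose intervals reached 1.98-fold, 1.94-fold and 1.68-fold.

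Differences among the genes were read from the log2 ratio of 2 genes' counts within a library, which does not depend on how libraries are scaled. Ordered by enrichment, the genes ran Nlrc3, Traf3, Tnfaip3, Tank, Zc3h12a, Itch, Otud7b, Cyld, Tnip1 and Tax1bp1. In all 9 pairs of neighbours in this order the IP and Input libraries overlapped; the order was set by the same changes, so neighbours are the pairs with small differences, and this is a description only. Of all 45 pairs, 16 had groups that did not overlap, or 35.6%, against 56.3% of all pairs of tested genes in the top quartile of level. With 3 libraries against 3 the exact two-sided permutation test cannot go below p = 0.1, so no single pair could pass 0.05, and the differences are given as values.

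Each gene was in 9 pairs. Tax1bp1 separated in 7 of its 9 pairs, Nlrc3 and Traf3 in 5 each, and the other genes in 1 to 4. Of all pairs of tested genes in the top quartile of level, 56.3% separated, so 5 of 9 is near that background. Genes at the ends of the order have the widest differences because the same changes set the order, so these counts are a description only. The widest difference was between Nlrc3 and Tax1bp1. For Nlrc3 over Tax1bp1 the log2 ratio averaged -0.33 ± 0.12 over IP libraries and -1.46 ± 0.32 over Input libraries (SD, n = 3 each), a difference of 1.13 ± 0.20 (SE). Tnfaip3 and its partner Tax1bp1 also separated: their log2 ratio averaged 2.81 ± 0.31 over IP libraries and 1.96 ± 0.28 over Input libraries (SD, n = 3 each), a difference of 0.86 ± 0.24 (SE). By contrast the Tnfaip3 to Tnip1 ratio overlapped between the groups, at 2.75 ± 0.71 in the IP and 2.21 ± 0.30 in the Input (SD, n = 3 each). Traf3 and its deubiquitinase Otud7b differed by 0.47 ± 0.12 (SE), with ratios of 1.86 to 2.12 in the IP libraries and 1.35 to 1.65 in the Input libraries.

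**Figure D3:**
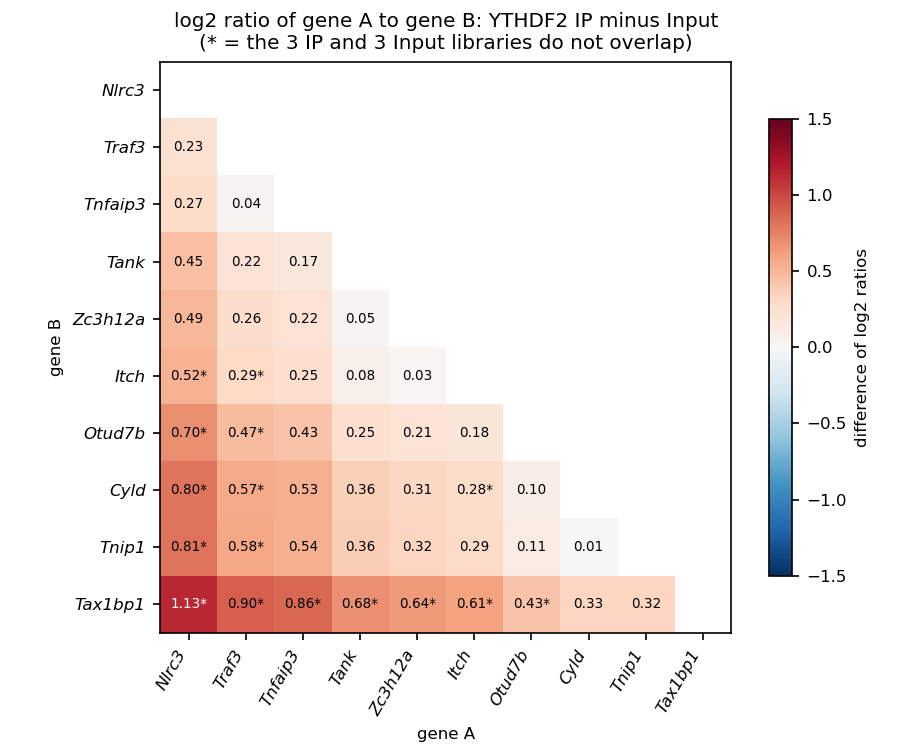
Difference, IP minus Input, of the mean log2 count ratio of gene A (columns) to gene B (rows), with genes in order of enrichment and an asterisk where the 3 IP and 3 Input libraries do not overlap. The asterisks gather in the Tax1bp1 row and in the Nlrc3 and Traf3 columns.

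Likeness of pattern was measured as the root mean square difference of log2 CPM, centred on each gene's mean, over the 6 libraries. It uses the same levels as the fold changes, so genes with close fold changes tend to come out near. The ends of the order tend to come out far apart for the same reason. Distances among other tested genes were not computed, so these values are a description only and no sign of shared function. Cyld and Otud7b, both deubiquitinases, were each other's nearest gene, at 0.131, and Itch was nearest to Otud7b, at 0.140. Tnfaip3, which also has a deubiquitinase activity, was the gene farthest from Otud7b, at 0.423. Tnip1 was nearest to Cyld, at 0.177, and Traf3 to Itch, at 0.180. The most unlike pair was Nlrc3 and Tax1bp1, at 0.598. The gene nearest to Tnfaip3 was Zc3h12a, at 0.283, the largest nearest distance of the 10.

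The sign of a small fold change depended on the scaling. The order of the 10 genes was the same under the 5 scalings, except that Cyld and Tnip1, nearly equal, changed places with all reads. A scaling applies 1 factor to all genes of a library, so the order could hardly change and is a description only. Relative to TMM scaling, all-read library sizes shifted the log2 fold changes of tested genes by a median of -0.53, upper quartile factors by 0.20 and gene-assigned totals by 0.11. With library sizes from all reads Nlrc3, Traf3 and Tnfaip3 kept positive values, at 0.33, 0.12 and 0.10, none of them called, and the other 7 genes were negative. Upper quartile factors gave 1.07, 0.85 and 0.82 for the same 3 genes, all called. Tax1bp1 lay below the median of all tested genes, and the other 9 genes above it, under each of the 5 scalings. The median moves with the genes, so the 5 scalings are not separate evidence for this. That median includes genes of lower level. Against the median of 0.10 for the top quartile of level, computed with TMM only, Cyld at 0.08 and Tnip1 at 0.07 also lay below.

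**Figure D4:**
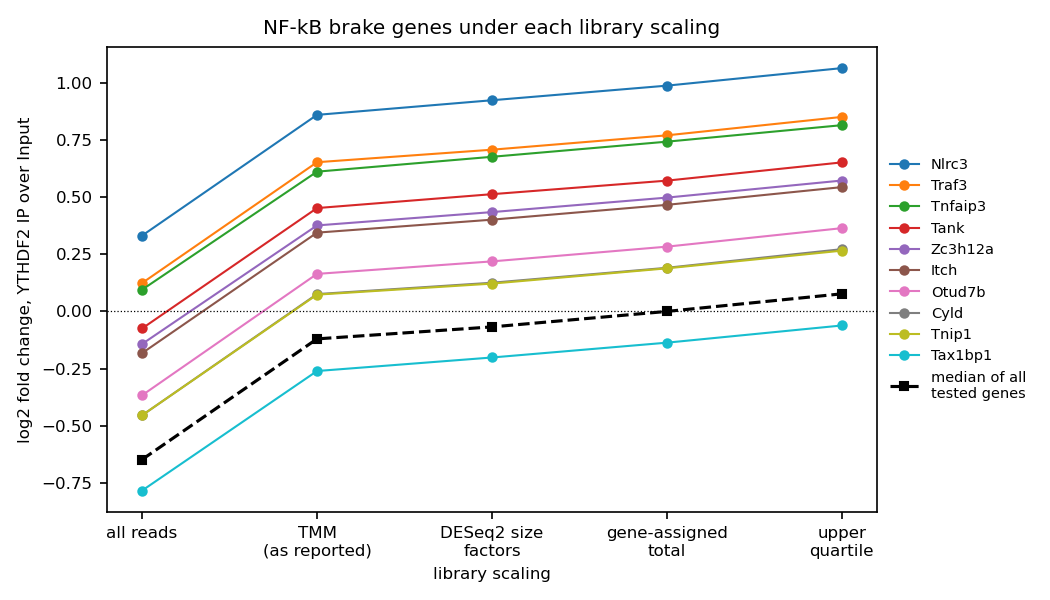
Log2 fold change of IP over Input for each gene (coloured lines) and the median of all tested genes (dashed line) under 5 library scalings; the lines only join values of 1 gene. All genes shift together, because a scaling applies 1 factor to all genes of a library. The values run from -0.78 to 0.33 with library sizes from all reads and from -0.06 to 1.07 with upper quartile factors.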

How the data were processed

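Each deposited file holds raw counts of reads per gene of 1 library. HISAT2 2.1.0, Trimmomatic 0.39, DESeq2, HTSeq and build mm10 are named in the submitters' processing notes, without roles; the annotation release and strand setting were not stated there. The 92 spike-in identifiers and 5 summary categories stayed out; reads in no feature were 71.2% to 72.1% of an IP file and 49.6% to 51.6% of an Input file. Counts of all genes were fitted with edgeR 4.0.16 in R 4.3.3 (filterByExpr, TMM, robust quasi-likelihood F-test, group as the only term), with Benjamini-Hochberg adjustment over all tested genes; the script was tested on simulated data. Standard errors and unadjusted 95% intervals come from the F statistics. Pairs of genes used log2 ratios of counts + 0.5. All 10 genes are named, and the genes and lists were chosen with earlier results of these data known. The lists of other NF-kB pathway genes and of cell type markers were not used, since 0 of 49997 reference genes hold an Ensembl identifier. For replicate numbers 1, 2 and 3, the correlation between the deviations of the IP library and the Input library was 0.0999, 0.0260 and 0.0242. Libraries of different numbers gave -0.0507 to 0.0183, so each same-number value was the highest for both of its libraries. All values were small, and the check cannot decide whether equal numbers share a lysate, which the labels do not state. The reported fit left pairing out, and a replicate block was fitted as an alternative. No replicate pair was a repeat of 1 library (chi-square per degree of freedom of at least 16.1). Alternatives were other size factors, filters, DESeq2 1.42.0, limma voom 3.58.1, a replicate block and each library left out.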

Additional observations from a re-analysis of the deposited data

Results flagged for a closer look

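Reads in no annotated feature lie outside the gene counts and made up 71.7% ± 0.434 of an IP file and 50.4% ± 1.08 of an Input file (SD, n = 3 each). Every IP library lay above every Input library. The 10 genes share the gene-assigned remainder, 24.8% ± 0.576 of reads in the IP and 38.9% ± 1.22 in the Input, and the part of this difference in their fold changes was not tested.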

How the results depend on the processing

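Over 16 alternatives, Nlrc3 was called enriched in 12, Traf3 in 9, Tnfaip3 in 4 and no other gene in any, and Tax1bp1 was called depleted in 1. With library sizes from all reads 0 genes were enriched and 1 depleted, the median of the 10 log2 fold changes was -0.16 in place of 0.36, and 6 values turned negative: Tank -0.075, Zc3h12a -0.14, Itch -0.18, Otud7b -0.37, Cyld -0.45 and Tnip1 -0.45. The median was 0.56 with upper quartile factors. Without a filter on low counts Cyld was at -0.0041 and Tnip1 at -0.0076, and Traf3 was no longer called (adjusted p = 0.0886). Leaving out 1 library gave 0 to 2 enriched and 0 depleted genes, medians of 0.14 to 0.39, and log2 fold changes of -0.061 to 0.18 for Cyld, -0.11 to 0.20 for Tnip1 and -0.015 to 0.20 for Otud7b. None of the 10 was enriched without IP replicate 2, Input replicate 2 or Input replicate 3, where 2.08%, 1.40% and 1.09% of all tested genes were. Without IP replicate 1 or Input replicate 1 it was 1 gene, where 1.94% and 2.03% of all tested genes were enriched. Without IP replicate 3 it was 2 genes, where 5.25% were. With all libraries the share was 4.33%, so the losses among the 10 went with fewer calls over all tested genes. Such fits have fewer libraries. Separated pairs of genes numbered 18 to 25 of 45 with 1 library left out, against 16, and 22 had 1 sign in all 3 replicate numbers. Neither count can fall below 16, because a separated pair stays separated with fewer libraries and has 1 sign in all replicate numbers. The share over all pairs of tested genes was not computed for these settings, so the rise is not a result about the 10 genes. With a replicate block the call was gained for Tnfaip3 (adjusted p = 0.00120) and no other call changed. Whether replicate numbers are pairs was not settled, and the call of Tnfaip3 depends on this choice among others. Over all tested genes, enriched numbered 676, and 1081 with upper quartile factors, 1382 with DESeq2, 1030 with 1 CPM in all libraries, 160 with library sizes from all reads and 188 to 999 with 1 library left out; depleted numbered 954, and 2085 with DESeq2, 1958 with all reads, 1715 with limma voom and 563 to 1661 with 1 library left out. Enriched against depleted genes split 676 to 954 with TMM, 1081 to 801 with upper quartile factors, 939 to 875 with gene-assigned totals and 160 to 1958 with all reads. The cause of these differences between settings was not tested. Levels per length were not computed, as no transcript lengths were at hand.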
